A study of Rattus norvegicus with 45 samples.

Results

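The genes described here are 8 enzymes that make serine, asparagine and folate-bound one-carbon units: Phgdh, Psat1, Psph, Asns, Shmt1, Shmt2, Mthfd2 and Aldh1l2. They were picked by gene symbol from the 13877 genes of the array table, and 8 of 8 were present. Liver RNA of 45 male Sprague-Dawley rats was hybridised to Affymetrix Rat Genome 230 2.0 arrays, 1 animal per array, and each value is a log2 intensity. The animals, 5 weeks old and of no stated genetic modification, had all been fasted for 16 h before dosing and fell into 9 groups of 5. The baseline group was untreated and was killed at 0 h. The vehicle groups received 1% hydroxyethylcellulose by gavage, and the APAP groups received acetaminophen (APAP, an analgesic whose reactive metabolite injures the liver at high dose) at 1000 mg/kg in that vehicle. Separate groups were killed 3, 6, 9 and 24 h after dosing. The study states that the animals had food again after this fast but the hour of its return is not given in the sources used here, so elapsed time, gavage and feeding cannot be told apart in the vehicle animals. Each array carries a separate animal, and the precision of each value is limited by how few arrays a group has.

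Serine is made from the glycolytic intermediate phosphoglycerate in a chain of reactions run by Phgdh, Psat1 and Psph, and asparagine is made from aspartate by Asns. The hydroxymethyltransferases Shmt1 (cytosol) and Shmt2 (mitochondria) split serine into glycine and a one-carbon unit carried on tetrahydrofolate. Inside mitochondria Mthfd2 oxidises that carrier towards formyl-tetrahydrofolate, and Aldh1l2 oxidises the formyl group to carbon dioxide. Many of these genes are known targets of Atf4, the transcription factor of the amino acid and integrated stress responses, and serine synthesis in rat liver is known to change with the protein content of the diet.

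The start-site regions of Phgdh, Psat1, Asns and Mthfd2 are shown because these 4 genes moved together after APAP, and that of Shmt1 as an example of genes that moved the other way. Sequences are the 250 bases before the start in the RefSeq promoter table (build GRCr8), which held 7 of the 8 genes. The starts used for Psat1 and Asns lie inside the span RefSeq gives these genes, and the 250 bases shown for each lie wholly within the annotated gene. The 5 sequences lie on the minus strand at chr2:188624790-188625039 (Phgdh), chr1:222645409-222645658 (Psat1), chr4:36769416-36769665 (Asns), chr4:117380351-117380600 (Mthfd2) and chr10:45990342-45990591 (Shmt1), and are written from 5′ to 3′ along the gene. Capitals mark CCAAT or its reverse complement ATTGG (the NF-Y box) and CACGTG (an E-box).
Phgdh: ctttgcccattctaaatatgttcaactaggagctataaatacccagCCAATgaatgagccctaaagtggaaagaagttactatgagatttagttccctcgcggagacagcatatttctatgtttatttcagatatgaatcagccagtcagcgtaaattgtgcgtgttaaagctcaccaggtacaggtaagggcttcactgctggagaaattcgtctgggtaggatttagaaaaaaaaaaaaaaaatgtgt
Psat1: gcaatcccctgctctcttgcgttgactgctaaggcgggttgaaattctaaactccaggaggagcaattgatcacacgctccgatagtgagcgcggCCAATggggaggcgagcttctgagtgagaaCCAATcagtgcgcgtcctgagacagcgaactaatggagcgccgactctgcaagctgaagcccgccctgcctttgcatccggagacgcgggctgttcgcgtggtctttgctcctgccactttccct
Asns: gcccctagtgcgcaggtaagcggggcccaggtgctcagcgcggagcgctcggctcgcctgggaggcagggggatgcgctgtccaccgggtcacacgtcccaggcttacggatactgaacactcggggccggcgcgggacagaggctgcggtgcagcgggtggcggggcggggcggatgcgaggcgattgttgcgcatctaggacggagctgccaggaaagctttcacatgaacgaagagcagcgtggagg
Mthfd2: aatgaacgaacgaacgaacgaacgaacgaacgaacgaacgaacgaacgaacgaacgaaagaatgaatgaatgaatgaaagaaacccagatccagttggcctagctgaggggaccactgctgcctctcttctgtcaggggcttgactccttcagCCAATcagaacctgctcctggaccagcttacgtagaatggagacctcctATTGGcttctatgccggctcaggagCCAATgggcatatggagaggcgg
Shmt1: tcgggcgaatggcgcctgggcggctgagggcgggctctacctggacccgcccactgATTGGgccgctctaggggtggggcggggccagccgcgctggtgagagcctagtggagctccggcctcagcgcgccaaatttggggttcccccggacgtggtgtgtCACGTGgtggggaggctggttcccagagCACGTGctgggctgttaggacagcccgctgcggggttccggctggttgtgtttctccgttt
CCAAT, searched on both strands over 250 bases before to 50 after the start, was found in 4 of 7 of the genes and in 37.5% of 33469 rat promoters in the same window. Mthfd2 held it 3 times (97, 48 and 23 bases before the start), Psat1 at 155 and 125 bases, Phgdh at 204 bases and Shmt1 at 194 bases. CACGTG was present in Shmt1 alone of the 7 (89 and 61 bases before the start) and in 6.42% of all promoters. Shmt2, which is not shown and also fell with APAP at 9 h, held neither CCAAT nor CACGTG. TGACNNNGC, the antioxidant response core, occurred once, 20 bases after the start of Phgdh, against 12.1% of all promoters. TGATGNAA, the core of the C/EBP-ATF element, was in 0 of 7 and in 3.98% of all promoters. These matches describe letters only and rest on 1 start per gene, which for Psat1 and Asns lies inside the annotated gene.

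A gene was called when limma gave an adjusted p under 0.05 (Benjamini-Hochberg over 13877 genes) and a change of at least 1.5-fold. All adjusted p values below are from limma unless a permutation test is named, changes are log2 differences ± SE with 5 animals per group, and "rose" or "fell" is used only of calls. Beside APAP against vehicle stand vehicle against baseline and APAP against baseline. These comparisons share arrays: each vehicle group enters both the APAP comparison and its own comparison with baseline, and the 5 baseline animals enter all of the latter.

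At 3 h after APAP 4 of the 8 genes rose over vehicle and 0 fell, where 3.34% of all genes rose and 2.98% fell. The 4 were Phgdh, Psat1, Asns and Mthfd2. The same 4 rose again at 6 h and 0 fell, where 7.06% of all genes rose and 7.04% fell. By 9 h none rose and 2 fell (Shmt1 and Shmt2), against 8.65% and 8.47% of all genes. At 24 h 0 rose and 1 fell (Aldh1l2), against 1.56% and 1.84%. From 3 to 24 h the median change of the 8 was 0.70, 0.56, −0.11 and 0.29, beside −0.024, −0.039, −0.031 and 0.0089 over all genes. In the vehicle animals 1 gene had risen over baseline by 3 h (1.70% of all genes), 3 by 6 h (2.70%), 5 by 9 h (3.48%) and 6 by 24 h (3.62%). None fell at any of these times, against 1.85%, 2.33%, 2.92% and 2.93% of all genes. APAP and vehicle animals did not overlap in 5 of the 8 genes at 3 h (20.2% of all genes), 6 at 6 h (33.1%), 2 at 9 h (35.0%) and 2 at 24 h (10.1%). Vehicle and baseline animals did not overlap in 2 at 3 h (16.7% of all genes), 2 at 6 h (19.9%), 4 at 9 h (21.5%) and 5 at 24 h (19.2%).

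**Figure D1:**
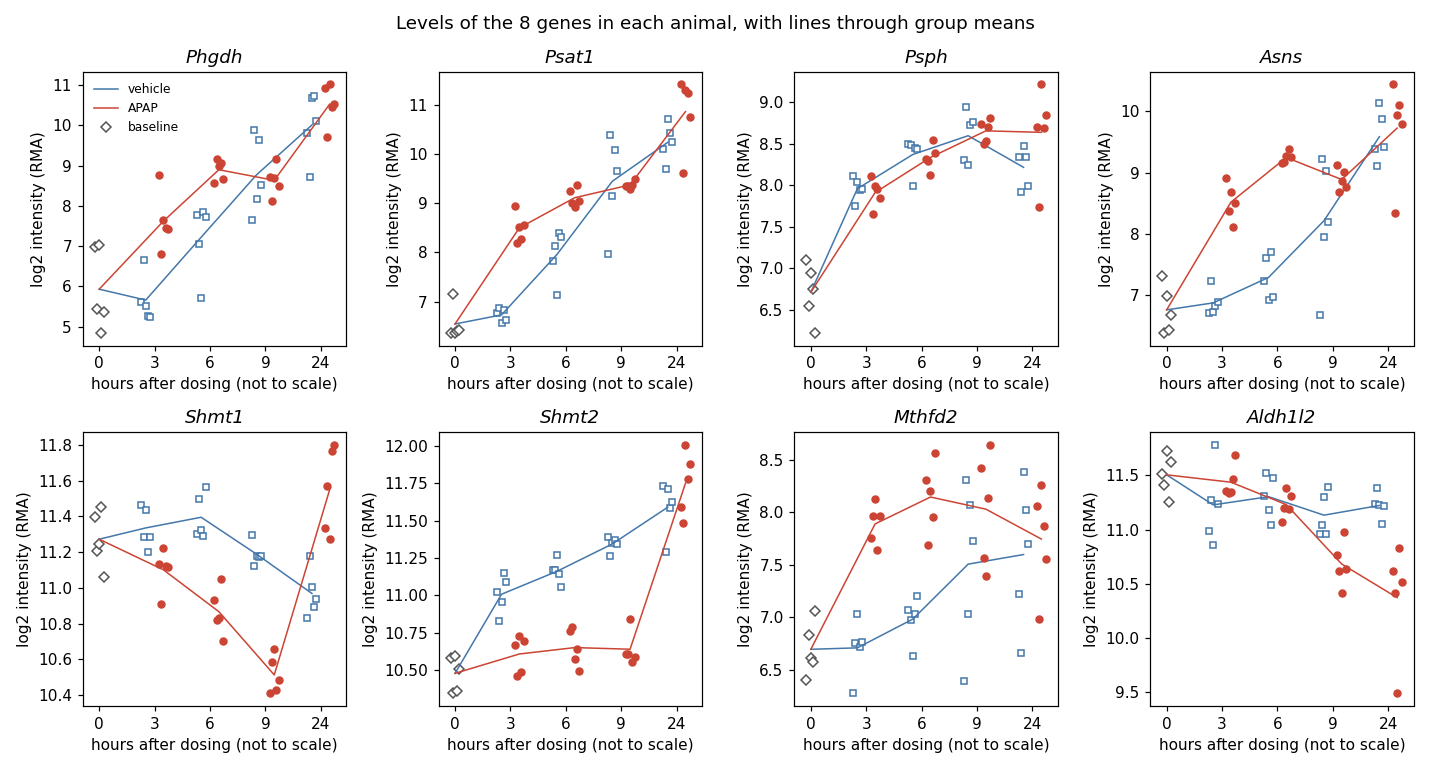
Log2 intensity of each of the 8 genes in every animal (points) against hours after dosing, with baseline as diamonds, vehicle as open squares, APAP as filled circles and lines through the group means. Phgdh, Psat1, Asns and Mthfd2 lie higher with APAP at 3 and 6 h and the vehicle line meets or nears the APAP line by 24 h, while Shmt2 climbs in vehicle animals and stays between 10.46 and 10.84 in APAP animals until 9 h.

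Phgdh (Entrez 58835, chromosome 2), the dehydrogenase that opens the serine pathway, read 6.97, 5.45, 7.04, 4.84 and 5.35 in the baseline animals. At 3 h the vehicle animals read 5.62, 6.66, 5.52, 5.26 and 5.24 and the APAP animals 8.76, 6.82, 7.66, 7.45 and 7.44. Every APAP animal lay above every vehicle animal, and the gene was 3.90-fold higher (1.96 ± 0.34, adjusted p = 0.000976). At 6 h the vehicle animals read 7.77, 7.05, 5.72, 7.84 and 7.72 against 8.57, 9.17, 9.00, 9.08 and 8.68 with APAP, again without overlap (1.68 ± 0.34, adjusted p = 0.00148). By 9 h the vehicle animals had spread from 7.65 to 9.90 and enclosed the APAP animals, which read 8.13 to 9.16, and the difference was −0.14 ± 0.38 (95% interval −0.98 to 0.70, adjusted p = 0.804). At 24 h both groups stood highest, from 8.71 to 10.73 with vehicle and from 9.71 to 11.02 with APAP, and the difference of 0.52 ± 0.36 did not pass (adjusted p = 0.46). Set against baseline, the vehicle animals alone were 7.17-fold higher at 9 h (2.84 ± 0.51, adjusted p = 0.00108) and 16.9-fold higher at 24 h (4.08 ± 0.48, adjusted p = 6.76e-05). At 6 h that difference was 1.29 ± 0.49 and was not called (adjusted p = 0.0765), but it was called without vehicle replicate 3 (1.66, adjusted p = 0.0155), baseline replicate 1 (1.55, adjusted p = 0.0407) or baseline replicate 3 (1.57, adjusted p = 0.0362).

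Psat1 (Entrez 293820, chromosome 1), the aminotransferase that follows Phgdh, moved with it. At 3 h the vehicle animals read 6.76, 6.88, 6.56, 6.82 and 6.64, close to the baseline range of 6.36 to 7.16, and the APAP animals read 8.94, 8.20, 8.52, 8.27 and 8.55. The groups were apart by more than 1 log2 unit at their nearest animals, a 3.40-fold rise (1.76 ± 0.12, adjusted p = 1.44e-06). At 6 h the vehicle values were 7.82, 8.14, 7.13, 8.39 and 8.31 and the APAP values 9.24, 9.00, 8.92, 9.36 and 9.04, still without overlap but with a smaller gap (1.15 ± 0.20, adjusted p = 0.000498). At 9 h the APAP animals were within 0.19 of each other (9.29 to 9.48), whereas the vehicle animals read 7.96, 10.38, 9.14, 10.09 and 9.66, on both sides of them, and the difference was −0.07 ± 0.36 (adjusted p = 0.888). At 24 h vehicle animals ranged from 9.70 to 10.71 and APAP animals read 11.41, 9.61, 11.29, 11.23 and 10.76. The difference there was 0.62 ± 0.31 and was not called (adjusted p = 0.258), but without APAP replicate 2, the low animal, it was 0.94 and was called (adjusted p = 0.011). Vehicle animals rose over baseline by 1.41 ± 0.23 at 6 h (adjusted p = 0.00061), by 2.90 ± 0.37 at 9 h (adjusted p = 9.77e-05) and by 3.69 ± 0.19 at 24 h (adjusted p = 1.03e-07), a 12.9-fold change.

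Psph (Entrez 304429, chromosome 12), the phosphatase that releases serine at the end of the chain, followed another course. The baseline animals read 7.09, 6.54, 6.94, 6.75 and 6.21. At 3 h the vehicle animals already read 8.11, 7.74, 8.04, 7.94 and 7.96 and the APAP animals 8.11, 7.65, 7.98, 7.96 and 7.85. Both treated groups lay wholly above baseline and overlapped each other almost completely. Vehicle animals had risen 2.37-fold over baseline (1.25 ± 0.14, adjusted p = 7.2e-05), and the difference between APAP and vehicle was −0.05 ± 0.09, with a 95% interval of −0.24 to 0.15. At 6 h that difference was −0.03 ± 0.10 and at 9 h 0.06 ± 0.13, with intervals that kept within −0.26 to 0.34. At 24 h the APAP animals read 8.70, 7.74, 9.21, 8.68 and 8.84 and the vehicle animals 8.34, 7.92, 8.47, 8.34 and 7.99. All APAP values but 1 stood above all vehicle values and replicate 2 lay below them, and the difference was 0.42 ± 0.22 (adjusted p = 0.301), or 0.65 and called without replicate 2 (adjusted p = 0.015).

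Asns (Entrez 25612, chromosome 4), asparagine synthetase, had the narrowest APAP group at 6 h. The vehicle animals read 6.72, 7.23, 6.72, 6.83 and 6.90 at 3 h and 7.24, 7.61, 6.93, 7.72 and 6.98 at 6 h. The APAP animals read 8.91, 8.37, 8.68, 8.12 and 8.51 at 3 h and 9.17, 9.17, 9.27, 9.39 and 9.26 at 6 h. No animal of either treatment overlapped at these times, and the rise was 3.12-fold at 3 h (1.64 ± 0.14, adjusted p = 6.03e-06) and 3.88-fold at 6 h (1.96 ± 0.14, adjusted p = 4.15e-07). At 9 h the APAP animals stayed between 8.69 and 9.13 while the vehicle animals read 6.69, 9.22, 7.96, 9.03 and 8.20, a spread of 2.54 log2 units. With 2 of the vehicle animals inside or above the APAP range, the difference of 0.67 ± 0.38 did not pass (adjusted p = 0.177). At 24 h vehicle (9.10 to 10.14) and APAP (8.34 to 10.44) overlapped, with a difference of 0.14 ± 0.34. Vehicle animals rose over baseline by 1.45 ± 0.40 at 9 h (adjusted p = 0.0148) and by 2.82 ± 0.21 at 24 h (adjusted p = 2.09e-06), a 7.08-fold change. At 6 h the vehicle difference was 0.53 ± 0.20 (adjusted p = 0.0692) and was called without vehicle replicate 3 (0.62, adjusted p = 0.0464) or baseline replicate 1 (0.67, adjusted p = 0.0178).

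Mthfd2 (Entrez 680308, chromosome 4), the mitochondrial methylene-tetrahydrofolate dehydrogenase, rose in step with these. Vehicle animals at 3 h read 6.28, 6.76, 7.03, 6.72 and 6.76, as at baseline (6.40 to 7.06), against 7.75, 7.97, 8.13, 7.64 and 7.97 with APAP. At 6 h they read 7.07, 6.97, 6.64, 7.03 and 7.20 against 8.31, 7.69, 8.21, 7.96 and 8.57. The groups were separate at both times, with rises of 2.27-fold (1.18 ± 0.13, adjusted p = 3.45e-05) and 2.24-fold (1.16 ± 0.15, adjusted p = 4.54e-05). At 9 h vehicle animals ranged from 6.39 to 8.31 and APAP animals from 7.39 to 8.65, and 0.52 ± 0.36 did not pass (adjusted p = 0.259). At 24 h the ranges were 6.66 to 8.38 and 6.98 to 8.26, with a difference of 0.15 ± 0.31. The vehicle rise over baseline at 24 h was 0.90 ± 0.27 (adjusted p = 0.0277). Leaving out any of 6 of the 10 animals of that comparison took its adjusted p to between 0.0542 and 0.0671, namely vehicle replicates 3, 4 and 5 and baseline replicates 1, 3 and 4. The vehicle difference at 9 h, 0.81 ± 0.30 (adjusted p = 0.0663), was called without vehicle replicate 1 (1.09, adjusted p = 0.00365).

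Shmt2 (Entrez 299857, chromosome 7), the mitochondrial hydroxymethyltransferase, rose over baseline in vehicle animals from 6 h, and in APAP animals was called over baseline at 24 h. The baseline animals read 10.58, 10.34, 10.60, 10.36 and 10.51. Vehicle animals read 10.83 to 11.15 at 3 h, 11.06 to 11.27 at 6 h, 11.39, 11.27, 11.35, 11.37 and 11.34 at 9 h, and 11.29 to 11.73 at 24 h. None of these overlapped baseline, and the vehicle rise was called at 6 h (0.68 ± 0.06, adjusted p = 1.25e-05), 9 h (0.87 ± 0.06, adjusted p = 9.72e-07) and 24 h (1.11 ± 0.09, adjusted p = 2.89e-06), while 0.53 ± 0.07 at 3 h was under 1.5-fold (adjusted p = 0.000301). The APAP animals read 10.46 to 10.73 at 3 h, 10.49 to 10.79 at 6 h and 10.61, 10.61, 10.84, 10.55 and 10.59 at 9 h, close to baseline, and 11.49 to 12.01 at 24 h. APAP minus baseline was 0.13 ± 0.07, 0.17 ± 0.08 and 0.16 ± 0.07 at the first 3 times (adjusted p = 0.271, 0.0935 and 0.0975) and 1.27 ± 0.10 at 24 h (adjusted p = 2.67e-06). Against vehicle the APAP animals lay wholly below at 3 h (−0.40 ± 0.08, adjusted p = 0.00175) and 6 h (−0.51 ± 0.07, adjusted p = 5.6e-05), both under 1.5-fold, and Shmt2 fell 1.63-fold at 9 h (−0.70 ± 0.06, adjusted p = 1.91e-06). At 24 h the difference was 0.16 ± 0.11 (adjusted p = 0.461).

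Shmt1 (Entrez 287379, chromosome 10), its cytosolic counterpart, was called against baseline at no time in vehicle animals. It stayed there between 10.83 and 11.56, beside 11.06 to 11.45 at baseline. With APAP it read 10.91 to 11.22 at 3 h, 10.70 to 11.05 at 6 h, then 10.41, 10.58, 10.66, 10.43 and 10.49 at 9 h. By 24 h the APAP animals read 11.33, 11.57, 11.28, 11.77 and 11.80. The vehicle animals of 9 h read 11.29, 11.12, 11.18, 11.17 and 11.18, and those of 24 h 10.83, 11.18, 11.00, 10.89 and 10.94. All APAP animals were thus below all vehicle animals at 9 h and above all of them at 24 h. The difference was −0.23 ± 0.07 at 3 h (adjusted p = 0.0266) and −0.53 ± 0.08 at 6 h (adjusted p = 0.000143), both under 1.5-fold, and Shmt1 fell 1.60-fold at 9 h (−0.68 ± 0.06, adjusted p = 2.87e-06). At 24 h it was 0.58 ± 0.11 (adjusted p = 0.00545), just under the 1.5-fold limit. That difference was called when APAP replicate 1 or 3 or vehicle replicate 2 or 3 was left out (0.59 to 0.65). After cyclic loess normalisation the 9 h differences were −0.52 for Shmt1 and −0.55 for Shmt2, with adjusted p of 1.84e-05 and 2.32e-05, and both were then under 1.5-fold. Against baseline, Shmt1 fell with APAP at 9 h (−0.76 ± 0.08, adjusted p = 1.15e-05). At 24 h it differed from baseline by 0.28 ± 0.11 with APAP and was not called (adjusted p = 0.0944).

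Aldh1l2 (Entrez 299699, chromosome 7), the mitochondrial formyl-tetrahydrofolate dehydrogenase, fell late. Vehicle animals at 24 h read 11.23, 11.38, 11.22, 11.06 and 11.22, and APAP animals 10.61, 10.42, 9.49, 10.83 and 10.51. All APAP animals were below all vehicle animals, replicate 3 by the most, and the gene was 1.80-fold lower (−0.85 ± 0.20, adjusted p = 0.0173). At 9 h the APAP animals read 10.77, 10.62, 10.41, 10.98 and 10.63 against 10.96, 11.04, 11.30, 10.96 and 11.40 with vehicle, so that 1 APAP animal reached the vehicle range, and −0.45 ± 0.12 was under 1.5-fold (adjusted p = 0.00653). At 3 and 6 h the differences were 0.21 ± 0.15 and −0.07 ± 0.09 (adjusted p = 0.346 and 0.574). Against baseline, whose animals read 11.25 to 11.73, the gene had fallen with APAP at 9 h (−0.82 ± 0.11, adjusted p = 7.49e-05) and 24 h (−1.13 ± 0.21, adjusted p = 0.00137), and in vehicle animals it was called at no time, with differences of −0.20 to −0.37.

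Measured against baseline instead of vehicle, APAP animals showed 5 of the 8 genes higher and 0 lower at 3 h (2.43% and 1.41% of all genes) and the same counts at 6 h (5.93% and 4.72%). The counts were 5 and 2 at 9 h (7.89% and 7.15%) and 6 and 1 at 24 h (4.54% and 3.89%). The 5 were Phgdh, Psat1, Psph, Asns and Mthfd2 at each of the first 3 times, and Shmt2 joined them at 24 h. At 9 h, for example, APAP animals were 6.52-fold above baseline for Phgdh (2.71 ± 0.40, adjusted p = 0.000156) and 7.08-fold for Psat1 (2.82 ± 0.14, adjusted p = 2.86e-08), beside the vehicle values of 2.84 and 2.90 given above. APAP animals thus stood well above baseline at 9 h in genes that showed no called difference from vehicle.

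**Figure D2:**
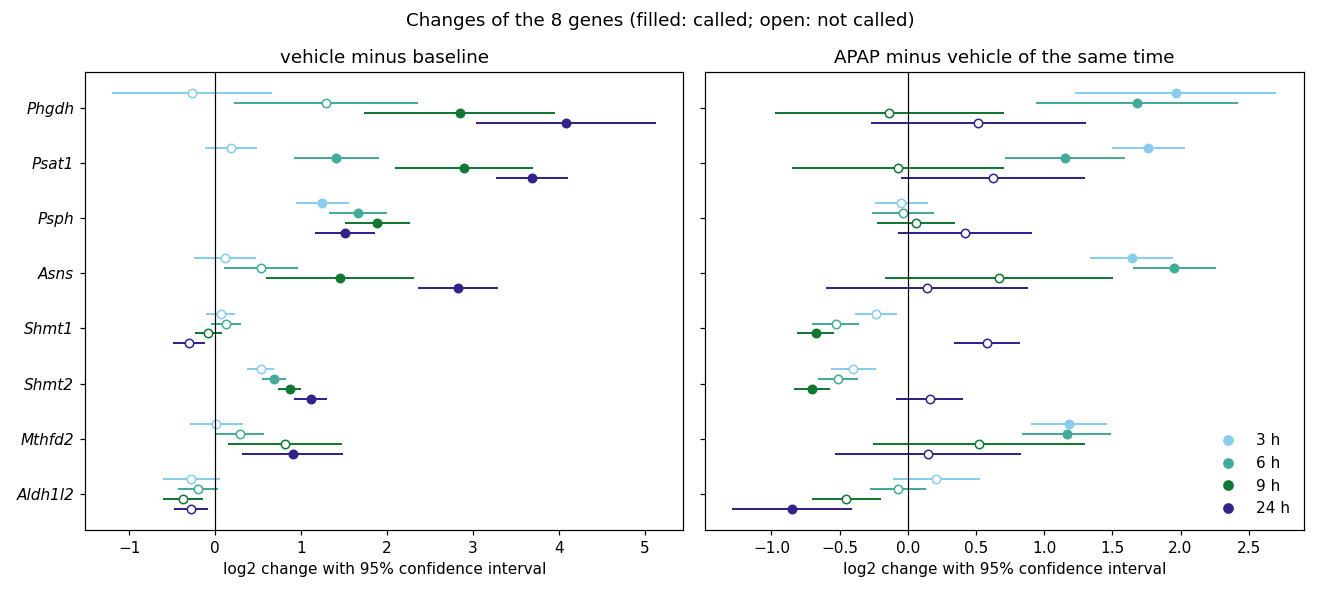
Log2 change (x axis) of each gene with its 95% confidence interval at 3, 6, 9 and 24 h, with vehicle minus baseline on the left and APAP minus vehicle on the right. Filled points passed the call and open points did not. The vehicle changes of Phgdh, Psat1 and Asns move right with time, up to 4.08 for Phgdh, and their APAP changes at 9 h have intervals that hold 0.

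An interaction fit over 20 arrays asked whether the size of the APAP effect shifted from each time to the next. From 3 to 6 h, 0 of the 8 genes passed in limma (4.18% of all genes shifted up and 2.72% down), with 2 at an unadjusted p under 0.05 (Psat1, −0.61 ± 0.26, and Shmt1, −0.29 ± 0.11). Psat1 was called there without vehicle 6 h replicate 3 (−0.82, adjusted p = 0.00445). From 6 to 9 h 0 shifted up and 1 down (1.66% and 1.46% of all genes), namely Phgdh, whose effect changed by −1.82 ± 0.56 on the log2 scale (adjusted p = 0.0464). That call was lost when any of 13 of the 20 animals was left out (adjusted p 0.0556 to 0.0892). Asns (−1.28 ± 0.44, adjusted p = 0.0741) and Psat1 (−1.23 ± 0.44, adjusted p = 0.0922) did not pass, but were called without vehicle 9 h replicate 1 (−1.67, adjusted p = 0.0017, and −1.60, adjusted p = 0.00363). From 9 to 24 h 2 shifted up and 0 down (8.40% and 8.03% of all genes), Shmt1 (1.26 ± 0.13, adjusted p = 3.52e-07) and Shmt2 (0.86 ± 0.13, adjusted p = 3.08e-05). For the remaining 6, Psph alone was called in any leave-one-out fit of that step (0.59 without APAP 24 h replicate 2, adjusted p = 0.0335).

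Animals of 1 group did not carry equal levels, and several of the genes deviated together. In the vehicle group at 9 h, replicate 1 was the lowest animal for 4 of 5 genes among Phgdh, Psat1, Psph, Asns and Mthfd2, and replicate 2 was the highest for 5 of 5. Replicate 3 of vehicle at 6 h, replicate 2 of vehicle at 24 h and replicate 2 of APAP at 24 h were each lowest for 5 of 5. At baseline, in vehicle at 3 h and in APAP at 6 h no animal was lowest for more than 2 of 5. As a description over 45 arrays, with each value taken as its deviation from its group mean, Pearson's r was 0.82 for Psat1 with Asns, 0.73 for Phgdh with Asns, 0.73 for Psat1 with Mthfd2, 0.67 for Asns with Mthfd2, 0.63 for Phgdh with Psat1 and 0.48 for Phgdh with Mthfd2. Spearman's rho for the same pairs was 0.60, 0.76, 0.60, 0.48, 0.52 and 0.37. Psph with each of these 4 genes gave an r of 0.49 to 0.66 and a rho of 0.39 to 0.66. Shmt1 and Shmt2 showed an r of −0.01, and Shmt1 with Mthfd2 −0.41. Values from 1 array share that animal, its RNA and its normalisation, which these correlations carry as well. Mean correlation of an array with the rest of its group, across all genes, was 0.9934 for vehicle 9 h replicate 1, inside the range of 0.9865 to 0.9950 over all 45 arrays, and 0.9906 for APAP 24 h replicate 2.

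**Figure D3:**
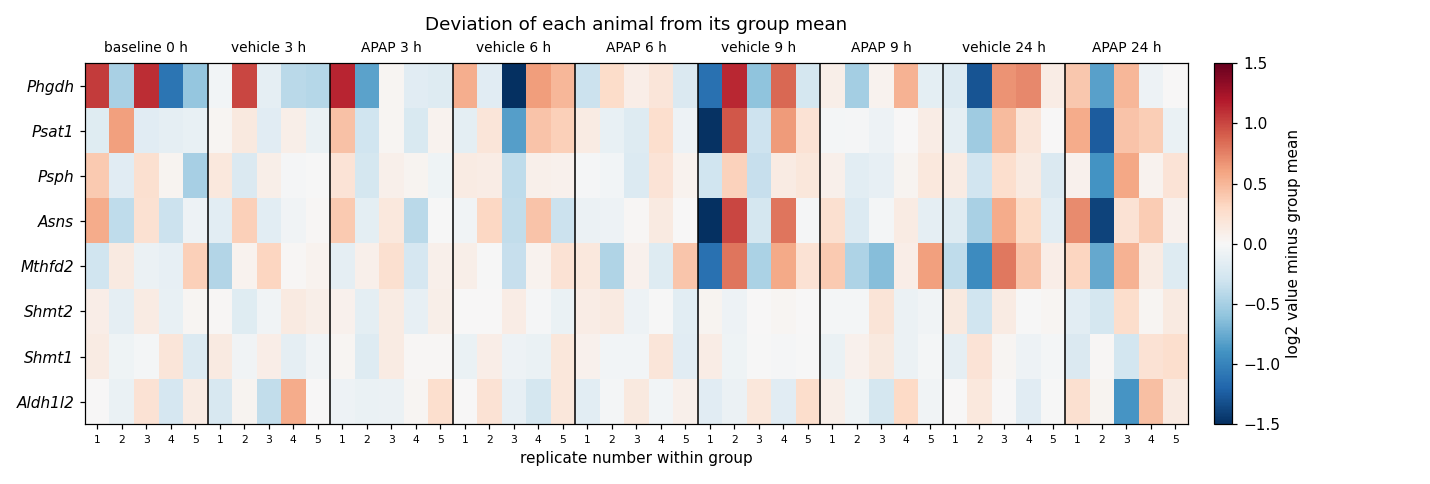
Deviation of each animal's log2 value from its group mean (colour, red above and blue below, the scale ending at 1.5 either way) for the 8 genes (rows) in 45 animals (columns, replicate number within each of 9 groups). Columns of 1 colour run through Phgdh, Psat1, Psph, Asns and Mthfd2 in vehicle 9 h replicates 1 (blue, Psph paler) and 2 (red) and in APAP 24 h replicate 2 (blue), and fade in Shmt1 and Shmt2.

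Gene pairs were then compared inside each array, either counterparts in mitochondria and cytosol or steps of the serine chain, as the difference of their log2 values between APAP and vehicle animals. Over 5 pairs and 4 times, 20 exact two-sided permutation tests were made and adjusted by Benjamini-Hochberg, and with 5 animals against 5 the smallest p is 0.007937. Mitochondrial Mthfd2 was set against cytosolic Mthfd1, which carries the same activity in a trifunctional enzyme. They moved in opposite directions, Mthfd2 by 1.18, 1.16 and 0.52 and Mthfd1 by −0.27, −0.40 and −0.95 at 3, 6 and 9 h. At 9 h the change of Mthfd1 was the larger, and Mthfd2 itself was not called. Mthfd2 minus Mthfd1 changed by 1.45 ± 0.17 at 3 h, 1.56 ± 0.21 at 6 h and 1.48 ± 0.46 at 9 h. This difference was higher in 5 of 5 APAP animals than in any vehicle animal each time (exact permutation p = 0.007937, adjusted p = 0.0265). At 24 h that difference was 0.50 ± 0.40 (exact permutation p = 0.286). Psph minus Phgdh changed by −2.01 ± 0.40 at 3 h and −1.71 ± 0.34 at 6 h (exact permutation p = 0.007937, adjusted p = 0.0265), and by 9 h the difference was 0.20 ± 0.36 (exact permutation p = 0.587). Aldh1l2 minus its cytosolic counterpart Aldh1l1 changed by −1.05 ± 0.30 at 24 h, with Aldh1l2 at −0.85 and Aldh1l1 at 0.20. This difference was lower in 5 of 5 APAP animals than in any vehicle animal (exact permutation p = 0.007937, adjusted p = 0.0265). For Shmt2 against Shmt1 no test passed, with differences of −0.17 ± 0.09, 0.02 ± 0.10, −0.03 ± 0.04 and −0.42 ± 0.20 from 3 to 24 h, and none passed for Psat1 against Phgdh (−0.53 ± 0.28 at 6 h, exact permutation p = 0.0952, was the furthest from 0). The Mthfd2 result at 9 h did not pass without APAP replicate 1, 4 or 5 or any 1 of the vehicle animals (1.19 to 1.64). The exact permutation adjusted p was then 0.0529 to 0.132. The Psph result at 3 h did not pass without any 1 of the APAP animals (−2.15 to −1.78), and that of Aldh1l2 at 24 h in 5 of 10 such fits. In each of these Psph and Aldh1l2 fits the exact permutation adjusted p was 0.0529. Separate groups stay separate when 1 animal is left out, and with 4 animals against 5 the exact p moves in coarse steps. These losses therefore do not show that the Psph and Aldh1l2 results rest on single animals. Aldh1l2 minus Aldh1l1 at 3 h, 0.47 ± 0.23 (exact permutation, adjusted p = 0.212), passed without vehicle replicate 4 (0.64, adjusted p = 0.0227).

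**Figure D4:**
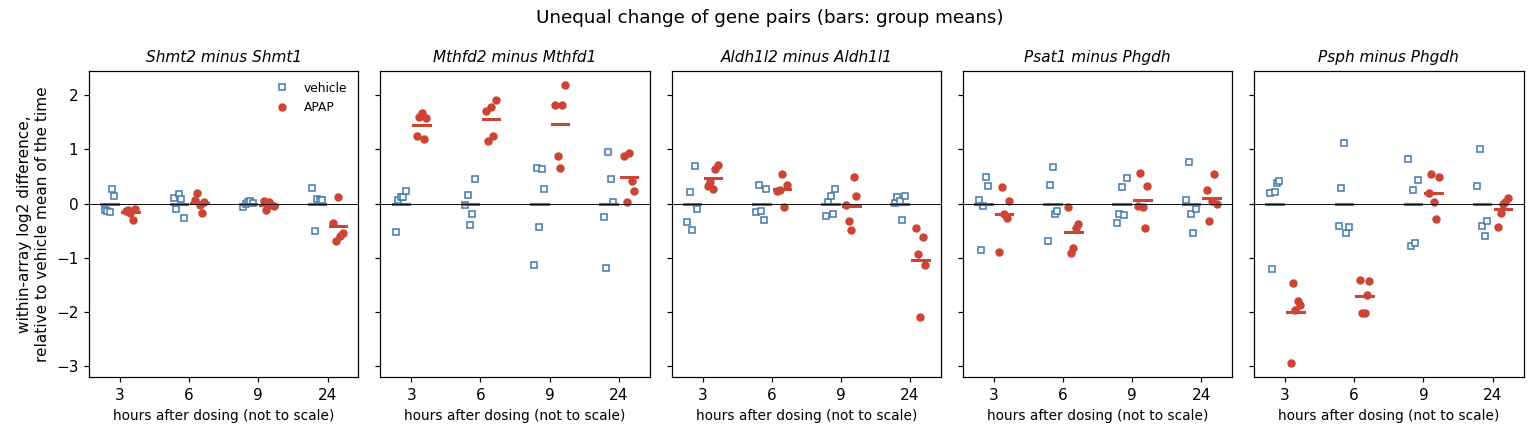
Within-array log2 difference of 5 gene pairs in each animal, set to 0 at the vehicle mean of its time (y axis), at 3, 6, 9 and 24 h (x axis), with vehicle as open squares, APAP as filled circles and bars at group means. All APAP animals lie above vehicle for Mthfd2 minus Mthfd1 at 3, 6 and 9 h, and below it for Psph minus Phgdh at 3 and 6 h and for Aldh1l2 minus Aldh1l1 at 24 h.

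Among other folate enzymes and carriers (18 of 18 measured), those that rose and fell with APAP numbered 2 and 0 at 3 h, 1 and 1 at 6 h, 1 and 3 at 9 h, then 1 and 0 at 24 h. Over all genes 3.34% rose and 2.98% fell at 3 h, and 7.06% and 7.04% at 6 h. At 9 h the shares were 8.65% and 8.47%, and at 24 h 1.56% and 1.84%. In vehicle animals against baseline 1.70% to 3.62% of all genes rose and 1.85% to 2.93% fell. These shares stand beside the counts of every list below, including the cell type lists. Slc25a32, the mitochondrial folate carrier, rose at 3, 6 and 9 h (1.34 ± 0.13, 0.93 ± 0.18 and 0.76 ± 0.17, adjusted p = 1.63e-05, 0.00111 and 0.00276). In vehicle animals the same gene fell below baseline at 6 and 9 h (−0.72 ± 0.09 and −0.81 ± 0.13), and with APAP it was 0.78 ± 0.13 above baseline at 3 h (adjusted p = 0.0016) and differed from it by 0.21 ± 0.19 at 6 h and −0.05 ± 0.14 at 9 h (adjusted p = 0.406 and 0.817). Ggh, which trims folate polyglutamates, rose over vehicle at 3 and 24 h (0.61 ± 0.08 and 1.08 ± 0.11). Mthfd1 fell at 9 h (−0.95 ± 0.08, adjusted p = 2.3e-06), as did Mtfmt, which formylates mitochondrial initiator tRNA (−0.81 ± 0.12), and the folate transporter Slc46a1 (−0.60 ± 0.08). In vehicle animals at 24 h Aldh1l1 (0.98 ± 0.09) and Mthfd1 (0.95 ± 0.09) rose over baseline and Ftcd, which feeds histidine carbon into the folate pool, fell (−0.73 ± 0.08). The list's median change stayed between −0.13 and 0.06 in the APAP comparisons, beside −0.039 to 0.0089 over all genes.

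Of 23 measured genes for the use and transport of serine and glycine, 2 rose and 1 fell at 3 h, 4 and 3 at 6 h, 5 and 6 at 9 h, then 1 and 2 at 24 h. The amino acid transporter Slc38a2 rose by 3.90 ± 0.15 at 3 h, 2.96 ± 0.21 at 6 h and 1.71 ± 0.33 at 9 h. Sds, serine dehydratase, which degrades serine in liver, also rose (1.36 ± 0.47, 2.19 ± 0.40 and 2.24 ± 0.38 at 3, 6 and 9 h, adjusted p = 0.0473, 0.00073 and 0.000408), while Gldc of the glycine cleavage system fell (−0.65 ± 0.14, −1.47 ± 0.06 and −1.55 ± 0.08). In vehicle animals both ran the other way against baseline: Sds fell at all 4 times (−1.40 to −2.73) and Gldc rose at 6, 9 and 24 h (0.84 to 0.95). In methionine metabolism, where 12 genes were measured, 0 rose and 1 fell at 3 h, 1 and 2 at 6 h, 4 and 4 at 9 h, then 0 and 0 at 24 h. Cth, the last enzyme of cysteine synthesis from serine, was among those that fell (−0.81 ± 0.17, −1.56 ± 0.13 and −1.89 ± 0.07 at 3, 6 and 9 h). The median change of the 12 was 0.12, 0.22, 0.18 and 0.11 from 3 to 24 h, beside −0.024, −0.039, −0.031 and 0.0089 over all genes.

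Among 17 measured enzymes of asparagine, aspartate, glutamine and proline, 0 rose and 2 fell at 3 h, 3 and 4 at 6 h, 3 and 3 at 9 h, then 1 and 2 at 24 h. Got1, which makes the aspartate that Asns uses, rose at 6 and 9 h (adjusted p = 0.000255 and 0.000266, by 1.43 ± 0.23 at 9 h), and so did Nars, which charges tRNA with asparagine (0.83 ± 0.10 and 1.28 ± 0.08). Asrgl1 and Aspg, which break asparagine down, fell at 6 h (−1.34 ± 0.33, adjusted p = 0.00502) and at 24 h (−1.23 ± 0.19, adjusted p = 0.00132) respectively. Purine synthesis, a main use of one-carbon units, had 9 measured genes, of which 1 rose at 3 h, 1 at 6 h, 4 at 9 h and 1 at 24 h, with 0 falling. Prps1 (0.94 ± 0.07), Gmps (0.80 ± 0.07), Ppat (0.76 ± 0.08) and Impdh2 (0.75 ± 0.08) were those of 9 h. In vehicle animals 0 of the 9 purine genes were called at any time. Of 14 cell division genes 1 rose and 0 fell at 3 h, 2 and 1 at 6 h, then 1 and 0 at 9 h with APAP, Pcna being among the risers each time (1.16 ± 0.13, 1.40 ± 0.11 and 1.89 ± 0.13), and 4 rose in vehicle animals at 24 h (Mcm6, Mcm4, Mcm5 and Mcm2).

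Of 18 measured regulators of the integrated stress response, 10 rose and 1 fell at 3 h, 9 and 0 at 6 h, 10 and 0 at 9 h, then 0 and 0 at 24 h. The list medians were 0.98, 0.82, 0.90 and −0.03, beside −0.024, −0.039, −0.031 and 0.0089 over all genes. Atf3, a transcription factor induced by stress, rose by 6.62 ± 0.35, 6.78 ± 0.16 and 6.27 ± 0.21 at 3, 6 and 9 h, and the pseudokinase Trib3 by 3.85 ± 0.17 at 3 h and 5.54 ± 0.12 at 6 h. Atf4 itself, singled out after its values were seen, rose with APAP by 1.25 ± 0.10, 1.21 ± 0.10 and 0.83 ± 0.14 at those times (adjusted p = 3.31e-06, 8.94e-07 and 0.00042) and differed by 0.12 ± 0.15 at 24 h. In vehicle animals against baseline, 1 of the 18 rose and 3 fell at 3 h, 2 and 3 at 6 h, 2 and 1 at 9 h, then 1 and 0 at 24 h. The list medians there were −0.008, 0.022, 0.11 and 0.13, beside −0.0061 to 0.0046 over all genes. Over baseline, vehicle animals showed Atf4 higher by 0.59 ± 0.08 at 6 h, 0.87 ± 0.10 at 9 h and 0.63 ± 0.13 at 24 h (adjusted p = 0.000254, 6.27e-05 and 0.00305), whereas Trib3 fell at 3 and 6 h (−0.81 ± 0.18 and −1.40 ± 0.14). The part of Atf4 in the changes of the 8 genes was not tested.

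The genes whose log2 values ran closest to each of the 8 over the 45 arrays were taken by Pearson's r, a description that group differences and shared arrays both feed. For Asns they were Lars (0.94), Cars (0.91) and Eprs (0.88), which encode tRNA synthetases for leucine, cysteine, and glutamate with proline. Lars and Cars also headed the lists of Psat1 (0.92 and 0.88) and Phgdh (0.90 and 0.85), each followed by Ephx1, microsomal epoxide hydrolase (0.86 and 0.82). Mthfd2 was closest to Cars (0.85), Eprs (0.79) and Sars (0.79). Psph stood near the alanyl-tRNA synthetase Aars (0.85) and Memo1 (0.82). Shmt2 ran with Nme1 (0.95), Copz1 (0.93) and Gbe1 (0.93), a nucleoside diphosphate kinase, a coatomer subunit and the glycogen branching enzyme. Shmt1 was nearest to Nthl1 (0.88), Baat (0.85) and Smoc1 (0.84), and Aldh1l2 to Bbox1 (0.84), Gulo (0.83) and Elovl5 (0.83).

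Whole liver was measured, so fewer cells of a type and less RNA per cell cannot be told apart. The hepatocyte list (Alb, Ttr and others, 10 of 10 measured) had mean log2 levels between 13.09 and 13.50 in every animal, and 1 of its 10 genes, Tat, was called with APAP at 3, 6 and 9 h. At 9 h, beside the falls of Shmt1 and Shmt2, the neutrophil and monocyte list (5 of 10 measured) read 5.61 to 6.85 per animal with APAP and 5.51 to 5.91 with vehicle, with 1 of 5 called (S100a8, 0.90 ± 0.34, adjusted p = 0.0479). The stellate cell list (9 of 10 measured) read 8.16 to 8.39 with APAP and 8.54 to 8.77 with vehicle, and the endothelial list (7 of 10) 8.27 to 8.60 and 8.76 to 8.91, with 1 and 0 genes higher and 2 and 2 lower. The cholangiocyte list (8 of 8) read 6.40 to 6.63 and 6.64 to 6.77, with 1 gene higher and 2 lower. At 24 h, beside the fall of Aldh1l2, the stellate list read 8.26 to 8.54 with APAP and 8.54 to 8.91 with vehicle, 3 of 9 genes being lower, and the endothelial list 8.50 to 8.74 and 8.77 to 8.89, with 0 of 7 called. At 3 and 6 h, beside the 4 genes that rose, 0 of 5 neutrophil, 0 of 8 lymphocyte and at most 1 gene of any other list were called. List levels nonetheless lay apart: at 3 h the hepatocyte list read 13.40 to 13.50 with APAP and 13.21 to 13.36 with vehicle, the stellate list 8.44 to 8.55 and 8.57 to 8.69, and the cholangiocyte list 6.35 to 6.45 and 6.55 to 6.75. The Kupffer cell list (7 of 10 measured) read 9.28 to 9.75 with APAP and 9.10 to 9.28 with vehicle at 3 h, without overlap. At 6 h the hepatocyte list read 13.43 to 13.49 and 13.25 to 13.31, the stellate list 8.29 to 8.45 and 8.49 to 8.73, and the cholangiocyte list 6.43 to 6.52 and 6.60 to 6.73. These levels are means over a list. The median change of the hepatocyte genes was −0.005 at 3 h and −0.031 at 6 h, beside −0.024 and −0.039 over all genes. For the stellate list it was −0.16 and −0.096, for the cholangiocyte list −0.14 and −0.18, and for the Kupffer list 0.29 and 0.069. The part of these shifts in the results was not tested.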

How the data were processed

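The deposited values are log2 intensities, which the authors made from Affymetrix Rat Genome 230 2.0 arrays with the RMA method of affy 1.64.0, run under R 3.6.1, with a custom probe-set definition (CDF version 19), so that 1 probe set stands for 1 gene. The table held 13877 genes in 45 arrays, from 3.48 to 15.07, with 0 missing. Symbols came from a second deposited sheet, whose 45 value columns are headed by codes absent from the labels and were not used. Of the genes, 13530 matched the RefSeq table.

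Group differences came from lmFit and eBayes of limma 3.58.1 (R 4.3.3), with 10 arrays per comparison, 20 for interactions and no covariate, with Benjamini-Hochberg adjustment over all genes. The scripts were tested on simulated data. Gene pairs were compared by exact two-sided permutation (Python 3.11.15, numpy 2.4.6, scipy 1.17.1). The labels do not say whether animals shared a litter or cage.

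The 8 genes, the pathway lists and the cell type lists were chosen with earlier results of these data known. All 8 genes are described. From each pathway list the text names called genes, at most 4 per comparison by size of change, and for each of the 8 the 3 genes of highest Pearson correlation with a proper symbol, of which 1 is not reported here.

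Replicate numbers were checked for pairing: deviations of same-numbered animals correlated between −0.23 and 0.23. This gave no sign that the numbers pair the animals, but weak correlations cannot show that they do not, and the animals were treated as unpaired. Alternatives were a single fit of 45 arrays, limma-trend, removal of the 25% dimmest genes, cyclic loess, an adjusted p of 0.01, baseline as control, a replicate block, and leaving out each animal.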

Additional observations from a re-analysis of the deposited data

Results flagged for a closer look

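Over 72 sets of 5 animals (8 genes in 9 groups), 4 held an animal whose gap to its nearest neighbour exceeded Dixon's 95% critical share of the group's range, and chance flags about 1 in 20 groups. For Phgdh in vehicle at 3 h, replicate 2 read 6.66 and the next animal 5.62. For Psat1 at baseline, replicate 2 read 7.16 and the next 6.43. For Psph in vehicle at 6 h, replicate 3 read 7.98 and the next 8.44. For Shmt2 in APAP at 9 h, replicate 3 read 10.84 and the next 10.61.

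The APAP effect differed between neighbouring times for 3 of the genes by the interaction in limma. Phgdh changed by −1.82 from 6 to 9 h (limma adjusted p = 0.0464), a call lost when any of 13 of the 20 animals was left out. From 9 to 24 h Shmt1 changed by 1.26 and Shmt2 by 0.86 (limma adjusted p = 3.52e-07 and 3.08e-05).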

How the results depend on the processing

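Of 180 alternative values for counts and gene pairs outside the leave-one-out fits, most kept their direction and their side of the threshold. The exceptions follow, and the cause was not tested for any of them unless the setting itself changes the comparison. With baseline in place of vehicle as control, which is another comparison, all genes called numbered 532 at 3 h (main 877) and 1170 at 24 h (main 472), and the 8 genes had 7 called at 9 h (main 2) and 7 at 24 h (main 1). The sign then turned for Psph at 3 h (1.20) and 6 h (1.63), Shmt2 at 3, 6 and 9 h (0.13, 0.17 and 0.16), Aldh1l2 at 3 h (−0.068), Phgdh at 9 h (2.71) and Psat1 at 9 h (2.82). Cyclic loess left 0 of the 8 called at 9 h, turned Aldh1l2 at 6 h to 0.092, and gave 1.33 for Mthfd2 minus Mthfd1 at 9 h (exact permutation, adjusted p = 0.106), and moved the median of all genes by under 0.1 at each time. At an adjusted p of 0.01, 0 of the 8 were called at 24 h, and for the change of effect from 6 to 9 h 0 of the 8 and 284 of all genes (main 1 and 434), and the vehicle calls of Asns at 9 h (adjusted p = 0.0148) and Mthfd2 at 24 h (adjusted p = 0.0277) were lost. A single fit of 45 arrays called 2 of the 8 for that change, Psat1 (adjusted p = 0.0489) and Asns (adjusted p = 0.0476), and not Phgdh (adjusted p = 0.0508), and called Phgdh in vehicle at 6 h (adjusted p = 0.0264) and Mthfd2 in vehicle at 9 h (adjusted p = 0.0272).

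With the replicate block, Mthfd2 in vehicle at 9 h was called (0.81, adjusted p = 0.024), and no other call of the 8 changed in limma. At most 2 of 5 animals correlated best with their own number. In the blocked gene-pair test by exact sign flips, whose smallest p is 0.0625, none could pass: Mthfd2 minus Mthfd1 was 1.45, 1.56 and 1.48 at 3, 6 and 9 h, Aldh1l2 minus Aldh1l1 −1.05 at 24 h, and Psph minus Phgdh −2.01 and −1.71 at 3 and 6 h.

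Leaving out 1 animal, the number called ranged from 1 to 3 for APAP at 24 h, 3 to 5 for vehicle at 6 h, 0 to 1 for the change of effect from 3 to 6 h and 0 to 3 for that from 6 to 9 h. Gene pairs ranged from −2.31 to −1.78 (Psph minus Phgdh, 3 h), −0.24 to 0.15 (the same, 24 h), 1.19 to 1.68 (Mthfd2 minus Mthfd1, 9 h), −1.20 to −0.79 (Aldh1l2 minus Aldh1l1, 24 h), 0.35 to 0.64 (3 h, passing at 0.64 without vehicle replicate 4), −0.17 to 0.070 (9 h), −0.050 to 0.067 (Shmt2 minus Shmt1, 6 h), −0.060 to 0.19 (Psat1 minus Phgdh, 9 h) and −0.029 to 0.30 (24 h). Single genes whose sign turned had APAP changes near 0: Psph from −0.10 to 0.018 at 3 h, −0.13 to 0.017 at 6 h and −0.029 to 0.15 at 9 h, Phgdh −0.42 to 0.14 and Psat1 −0.44 to 0.16 at 9 h, and Asns −0.039 to 0.49 and Mthfd2 −0.088 to 0.34 at 24 h. In vehicle at 3 h Mthfd2 ranged from −0.066 to 0.12 and Phgdh from −0.54 to 0.0068, and in the change of effect from 3 to 6 h Mthfd2 from −0.12 to 0.097 and Psph from −0.084 to 0.065. With 5 animals per group, the wide spread of the vehicle animals at 9 h limits what could be called there for Phgdh, Psat1, Asns and Mthfd2.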
